A study of Mus musculus with 36 samples.

Results

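Pdgfra, Cspg4, Lhfpl3, Sox6, Gpr17, Bcas1 and Enpp6 are genes of oligodendrocyte precursors and of the newly formed cells that follow them. They were chosen by symbol, as 7 of the 55487 genes in the gene count table, and each matched 1 row. Bulk RNA-seq was measured in 36 libraries of C57BL/6 mice aged 2 to 4 months: 12 from the unmyelinated optic nerve (UON), 12 from the myelinated optic nerve (MON) just behind it, and 12 from the whole retina. The mice were untreated (naive), or at 3 D or 2 W after optic nerve crush, or at 3 D, 2 W or 6 W after microbeads were injected into the eye to raise its pressure (labelled glaucoma). No mouse carried a transgene. For every group and tissue there was 1 library from a pool of 2 female mice and 1 from a pool of 2 male mice, so n = 2 pools throughout, sex and pool are the same thing, and all 3 tissues came from the same 24 mice. The crush was applied behind the eye, in the stretch of nerve that gave the MON samples.

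Oligodendrocytes, the cells that wrap axons in myelin, arise from precursors that persist in the adult optic nerve. A precursor carries the PDGF receptor encoded by Pdgfra and the NG2 proteoglycan encoded by Cspg4. It divides in answer to PDGF, and when it commits to myelinating it switches these genes off and passes through a short stage that expresses Gpr17, Bcas1 and Enpp6 before the genes of compact myelin take over. In rodents the optic nerve head next to the eye is largely free of myelin, and the retina normally holds no oligodendrocytes. Several of the 7 genes are also used by other cells: Pdgfra by fibroblasts and retinal astrocytes, Cspg4 by pericytes and smooth muscle.

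The genes fall into 2 groups. Pdgfra (receptor tyrosine kinase), Cspg4 (surface proteoglycan), Lhfpl3 (a membrane protein of the LHFPL family) and Sox6 (an HMG box transcription factor that keeps precursors from maturing early) mark precursors. Gpr17 (a G protein-coupled receptor), Bcas1 (a protein of early myelinating cells) and Enpp6 (a choline phosphodiesterase) mark committed and newly formed cells.

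The bases before the annotated start are shown for 5 of the genes, because these genes share cells but, as given further on, not their levels across tissues. They are RefSeq promoter sequences on GRCm38.p6, read in the direction of the gene and ending before the first base of the gene in both RefSeq and the deposited tables. RefSeq gives 6 starts for Sox6, of which the one farthest upstream is shown; the most counted Sox6 transcript, described further on, starts inside the gene at chr7:116031047. Bcas1 and Gpr17 are named only. Capitals mark matches on either strand to CAGATG (an E-box of the kind OLIG2 binds), CAGCTG (a palindromic E-box), ACAAAG or ACAATG (SOX core motifs) and TATAAA (the TATA box), of which no 2 overlap here. The windows are Pdgfra chr5:75152001-75152250, Cspg4 chr9:56864854-56865032, Lhfpl3 chr5:22745804-22746053, Sox6 chr7:116038797-116038994 (minus strand) and Enpp6 chr8:46986637-46986886.
Pdgfra: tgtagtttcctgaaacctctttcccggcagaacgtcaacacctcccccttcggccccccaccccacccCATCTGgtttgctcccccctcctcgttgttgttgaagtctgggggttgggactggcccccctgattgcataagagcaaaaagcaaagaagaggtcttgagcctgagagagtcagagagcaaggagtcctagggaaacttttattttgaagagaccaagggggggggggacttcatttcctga
Cspg4: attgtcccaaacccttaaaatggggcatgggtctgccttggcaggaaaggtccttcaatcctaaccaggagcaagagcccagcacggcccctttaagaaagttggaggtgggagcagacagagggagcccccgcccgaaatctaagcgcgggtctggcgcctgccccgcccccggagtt
Lhfpl3: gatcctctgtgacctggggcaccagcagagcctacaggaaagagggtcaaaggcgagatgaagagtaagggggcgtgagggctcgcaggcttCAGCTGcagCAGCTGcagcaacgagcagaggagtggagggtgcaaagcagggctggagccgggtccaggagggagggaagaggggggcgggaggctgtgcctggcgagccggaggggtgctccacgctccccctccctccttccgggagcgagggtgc
Sox6: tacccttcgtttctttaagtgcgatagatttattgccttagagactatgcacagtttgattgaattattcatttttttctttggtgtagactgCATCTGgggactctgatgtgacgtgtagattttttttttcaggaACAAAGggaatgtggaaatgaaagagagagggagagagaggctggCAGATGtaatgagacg
Enpp6: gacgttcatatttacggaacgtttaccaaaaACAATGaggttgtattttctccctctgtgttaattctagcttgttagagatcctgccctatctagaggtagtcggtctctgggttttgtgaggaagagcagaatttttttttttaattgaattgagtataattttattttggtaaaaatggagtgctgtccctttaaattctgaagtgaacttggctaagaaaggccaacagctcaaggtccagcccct

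Of the promoters shown, CAGATG was found 1 time in the Pdgfra window and 2 times in the Sox6 window. It is present in 14.5% of all RefSeq promoters over the 250 bases used for Pdgfra, and in 11.9% over the 198 bases used for Sox6. CAGCTG was found 2 times before Lhfpl3, against 12.8% of promoters with it. ACAAAG was found 1 time before Sox6 (13.4% of promoters) and ACAATG 1 time before Enpp6 (11%). None of these motifs was in the 179 bases before Cspg4, and TATAAA was in none of the 5 windows (13.0% of promoters over 250 bases). The windows also differed in base composition: G and C made up 67.2% of the Lhfpl3 window and 60.3% of that of Cspg4, but 38.4% of that of Enpp6 and 39.4% of that of Sox6, where the median promoter over 250 bases has 52.0%. A match here is a run of letters and not a measured binding site.

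On GRCm38, as the deposited tables place them, Pdgfra (ENSMUSG00000029231) lies at chr5:75152292-75198215 on the plus strand and Lhfpl3 (ENSMUSG00000106379) at chr5:22746059-23275597 on the same strand. Cspg4 (ENSMUSG00000032911) is at chr9:56865033-56899870 and Enpp6 (ENSMUSG00000038173) at chr8:46986887-47096762, both on the plus strand. On the minus strand are Sox6 (ENSMUSG00000051910) at chr7:115470872-116038796, Bcas1 (ENSMUSG00000013523) at chr2:170346991-170427845 and Gpr17 (ENSMUSG00000052229) at chr18:31942997-31949636.

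Library totals ran from 16.2 to 78.1 M of estimated counts (M, in units of 1e+06), and the 2 naive MON pools differed most, with 78.1 M in the female and 17.8 M in the male pool. The tissue labels were checked against 17 genes of mature oligodendrocytes and myelin, summed in CPM (counts per 1e+06 counts of the library, TMM-normalized over all libraries): 25240 to 81790 CPM in MON, 4395 to 27450 CPM in UON and 166 to 306 CPM in retina. UON was therefore poor in myelin transcripts but not free of them, and Mog was at 110 ± 19.3 CPM (SD, n = 2 pools) in naive UON. Among UON libraries, the female pool of glaucoma 3D stood highest in this sum at 27450 CPM against 11460 CPM in the male pool, and the male pool of crush 2W lowest at 4395 CPM against 15460 CPM in the female pool. In retina the defining lineage genes were at or near 0: Olig2 was at 0 in 10 of 12 libraries and reached 0.0901 CPM, and Olig1 and Sox10 reached 0.553 and 0.94 CPM.

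The regional comparison in naive mice asks how the genes are distributed along the visual pathway. Compared with UON, naive MON had higher levels of 4 of the 7 genes. The committed genes Gpr17 and Enpp6 and the precursor genes Lhfpl3 and Cspg4 were called higher by edgeR (quasi-likelihood test; a call needs a Benjamini-Hochberg adjusted p below 0.05 together with a log2 fold change above 1 or below -1). Bcas1, Pdgfra and Sox6 were not called. No gene of the 7 was called lower. Over all 23685 genes tested, 9.63% were called, 4.80% higher and 4.83% lower, with a median log2 fold change of 0.06 against 2.22 over the 7 genes.

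Gpr17 was at 145 CPM in the female and 75.0 CPM in the male MON pool, and at 6.09 and 2.34 CPM in the UON pools. Both MON pools lay far above both UON pools, a log2 fold change of 4.84 ± 0.50 (SE, adjusted p = 0.00243 by edgeR). Enpp6 was at 262 and 196 CPM in MON and at 23.2 and 23.9 CPM in UON (female pool first here and in what follows). The UON pools of Enpp6 were nearly identical, and the log2 fold change was 3.29 ± 0.49 (adjusted p = 0.00785 by edgeR). Under DESeq2 the same difference of 3.17 had an adjusted p of 0.118.

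Lhfpl3 was at 55.6 and 61.4 CPM in MON and at 8.22 and 6.64 CPM in UON. The pools of each region agreed closely, and the log2 fold change was 3.02 ± 0.24 (adjusted p = 0.00139 by edgeR). Cspg4 was at 71.7 and 75.4 CPM in MON and at 22.9 and 15.7 CPM in UON. Its groups did not overlap either, with a log2 fold change of 2.00 ± 0.27 (adjusted p = 0.00587 by edgeR), while limma on log2(FPKM + 1) gave 1.27 with an adjusted p of 0.0745.

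Bcas1 was the most abundant of the 7 transcripts, at 2191 and 878 CPM in MON and 387 and 277 CPM in UON. The MON pools differed widely from each other although both lay above UON, and the log2 fold change of 2.22 ± 0.70 did not pass (adjusted p = 0.0992 by edgeR). With 1 pool left out it ran from 1.09 (without the female MON pool, adjusted p = 0.455 by edgeR) to 2.92 (without the male MON pool), and it was called in the latter case and without the female UON pool (2.69). Pdgfra was at 92.3 and 61.1 CPM in MON and 43.4 and 37.0 CPM in UON. Its adjusted p of 0.0352 by edgeR passed, but the log2 fold change of 0.95 ± 0.21 fell under the limit of 1, and with 1 pool left out it ran from 0.74 to 1.09, called only without the male MON pool. Sox6 was nearly level, at 46.5 and 57.6 CPM in MON and 39.0 and 39.7 CPM in UON, a log2 fold change of 0.44 with a 95% interval from -0.09 to 0.96. In Bcas1, Pdgfra and Sox6, although not called, both MON pools lay above both UON pools. No share over all genes is given for this, so it is not read as a result about these genes. The interval of Sox6 leaves out a log2 difference of 1.

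**Figure D1:**
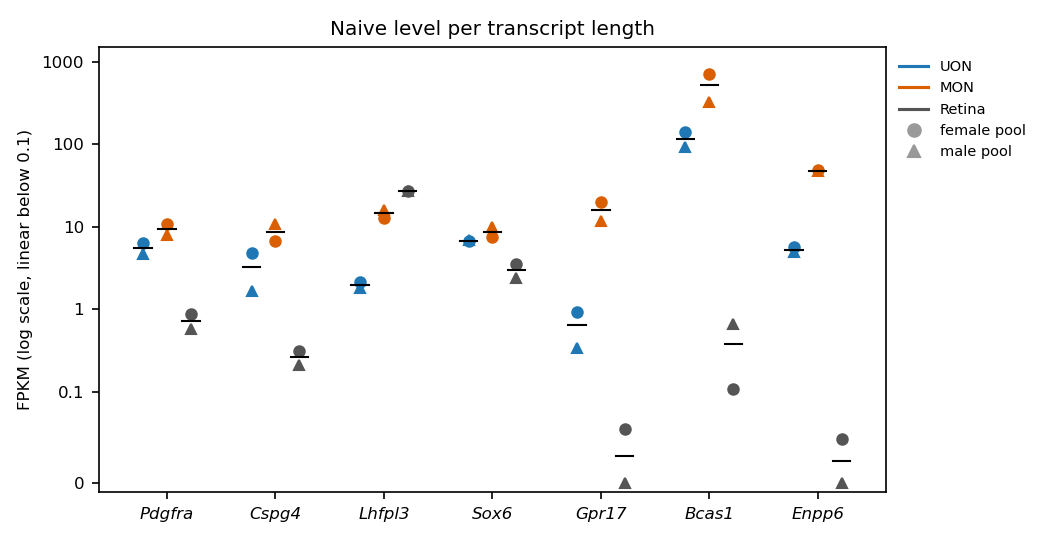
Naive level of the 7 genes in FPKM (log axis, linear below 0.1), with circles for female pools, triangles for male pools and a bar for the mean of the 2 pools. Bcas1 stands highest in both nerve regions, at 515 FPKM in MON and 116 FPKM in UON, while Lhfpl3 stands highest in retina, at 27.1 FPKM.

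Levels can be compared between genes per length of transcript, for which the deposited FPKM were used. In naive MON the order of FPKM was Bcas1 (515 ± 270, SD, n = 2 pools), Enpp6 (47.7 ± 1.31), Gpr17 (15.8 ± 5.78), Lhfpl3 (14.4 ± 2.26), Pdgfra (9.29 ± 2.07), Sox6 (8.69 ± 1.72) and Cspg4 (8.64 ± 2.84). Enpp6 stood clear of its neighbours in both pools, whereas Gpr17 and Lhfpl3 lay within their spread, as did Pdgfra, Sox6 and Cspg4. In naive UON the order was Bcas1 (116 ± 33.5 FPKM), Sox6 (6.76 ± 0.14), Pdgfra (5.49 ± 1.17), Enpp6 (5.26 ± 0.56), Cspg4 (3.21 ± 2.17), Lhfpl3 (1.97 ± 0.23) and Gpr17 (0.64 ± 0.42). Sox6 stood next after Bcas1 in UON but near the end in MON, and Enpp6 had a higher place in MON than in UON. In UON the Sox6 pools lay just above those of Pdgfra, the pools of Pdgfra and Enpp6 overlapped, as did those of Cspg4 and Lhfpl3, and Gpr17 lay lowest in both pools.

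Other genes of the lineage were read from lists. Of 20 other precursor genes, 13 were called higher and 2 lower in naive MON than in UON by edgeR, with a median log2 fold change of 2.56 against 0.06 over all genes tested. Nkx2-2, a homeodomain factor of the lineage, rose most at 4.80 (adjusted p = 0.0148), and Sox10, Olig1 and Olig2, its core transcription factors, were higher by 4.13, 3.71 and 3.51. C1ql1, a secreted synapse protein that precursors make, was lower by -1.80 (adjusted p = 0.0202), and Sox5, the closest relative of Sox6, was lower by -1.10. Of 17 other genes of committed and newly formed cells, 6 were called higher and 2 lower. The noncoding RNA 9630013A20Rik led them at 7.50 (adjusted p = 0.0183), and Tcf7l2, a Wnt effector also used by other cells, was lowest at -1.27 (adjusted p = 0.0313). Without the female MON pool 5 of these 17 were called in all, in place of 8. Of 17 mature and myelin genes 16 were called higher and none lower, with a median of 3.04, and Myrf, the master regulator of myelin genes, was highest at 3.85 (adjusted p = 0.00156).

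Of 6 PDGF ligands and related receptors none was called higher in MON and 2 lower: Pdgfc, a ligand of the receptor, was lower in MON by -1.63 (adjusted p = 0.0225 by edgeR) and the receptor-like Pdgfrl by -1.37. The 6 genes summed to 210 and 262 CPM in UON and 227 and 217 CPM in MON, so the sums overlapped. Fibroblast genes, which mark another cell that uses Pdgfra, were lower in MON: 7 of 12 called lower, led by Slc6a13 at -3.55, and 0 higher (1 called with all 36 libraries in 1 fit), with a summed level of 4476 and 4972 CPM in UON and 2614 and 2574 CPM in MON. Of 12 genes of pericytes and smooth muscle, which use Cspg4, 2 were called lower (Acta2 by -3.34 and Tagln by -3.92) and 0 higher, and their sum was 968 and 1145 CPM in UON and 279 and 310 CPM in MON. No gene of either list was at 0 in every library of a nerve region. What part these cells had in the Pdgfra and Cspg4 values of each region was not tested. In bulk tissue, fewer cells of a type and less RNA per cell cannot be told apart.

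Against the retina the genes parted into those with and those without a retinal level. In naive MON 6 of the 7 were called higher than in retina (27.6% of all genes tested were called, 16.7% higher and 10.9% lower), and in naive UON the same number was called higher (31.7% called, 18.2% higher and 13.5% lower). The median log2 fold change of all genes was 0.00 for MON over retina and -0.17 for UON over retina. The exception in both was Lhfpl3.

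Lhfpl3 was at 72.7 and 71.4 CPM in the naive retina, above both nerve regions. It was called lower in UON than in retina, by -3.32 ± 0.24 on the log2 scale (adjusted p = 7.52e-05 by edgeR; 13.5% of all genes were called lower). MON and retina differed by -0.30 ± 0.22, with a 95% interval from -0.82 to 0.22, so that a difference of 1 lies outside the interval of this fit. That interval does not cover the choice of scaling between tissues. In FPKM the naive means were 14.4 in MON and 27.1 in retina. Limma gave -0.88 on log2(FPKM + 1) (adjusted p = 0.00905, and 0.091 without a filter) and -0.92 on log2(FPKM + 0.1) (adjusted p = 0.0137), short of the limit of 1. Over all 12 retina libraries Lhfpl3 held between 56.4 and 76.9 CPM (median 66.6) and between 22 and 30 FPKM, far above the other 6 genes. Its retinal level stood beside the near absence of Olig1, Olig2 and Sox10 given above.

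Sox6 was the next in retina, from 12.8 to 23.3 CPM (median 17.0), and lower there than in MON (log2 fold change of MON over retina 1.63 ± 0.23) and UON (1.20 ± 0.22). Pdgfra, from 3.39 to 6.35 CPM in retina, was higher by 4.19 ± 0.24 in MON and 3.25 ± 0.23 in UON. Cspg4, from 0.928 to 2.88 CPM in retina, was higher by 5.20 ± 0.32 and 3.20 ± 0.29. These precursor genes had low retinal levels, with no library at 0. Cspg4 had 24 to 157 counts there, and its glaucoma 3D pools were at 0.928 and 2.88 CPM. The pericyte and smooth muscle genes that share Cspg4 summed to 1135 to 1422 CPM in retina. That was above most nerve libraries (262 to 636 CPM in MON and 417 to 1463 CPM in UON). Single genes of these cells did not all follow the sum. Median levels in retina, MON and UON were 3.68, 15.2 and 25.5 CPM for Kcnj8 and 9.94, 32.4 and 49.3 CPM for Pdgfrb. For Acta2 they were 4.84, 11.1 and 75.6 CPM. They were 35.5, 21.3 and 39.8 CPM for Rgs5 and 1.72, 0.832 and 1.16 CPM for Myh11. Most of the retinal sum therefore came from other genes. The fibroblast genes that share Pdgfra summed to 23.0 to 36.6 CPM in retina.

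The committed genes were at the edge of detection in retina. Gpr17 had 0 counts in 7 of 12 retina libraries and at most 18. Enpp6 had between 0 and 41 counts and was at 0 in 1 library, the naive male pool, and Bcas1 had between 16 and 78. A pair of reads adds about 4 of these estimated counts, so the values rest on few molecules. The log2 fold changes of MON over retina, 9.60 ± 0.66 for Gpr17, 10.8 ± 0.73 for Enpp6 and 10.5 ± 1.03 for Bcas1, are accordingly imprecise in size while clear in sign.

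The transcript counts show that the retina and the nerve did not use the same Lhfpl3 transcripts in the same shares. Both annotated transcripts were counted: Lhfpl3-202 with 4 exons, which starts at the promoter printed above, and Lhfpl3-201 with 3 exons, whose start at chr5:23100552 lies inside the gene. In retina Lhfpl3-201 took 57.7% of the gene's transcript counts, with a median of 62.5% over 12 libraries and a range from 8.49% to 69.1%. In MON it took 11.8% and in UON 9.35%, with a median of 0% in each. One MON library, the male pool of glaucoma 3D, was at 65.2%, and 2 UON libraries were at 59.4% (naive male) and 63.7% (glaucoma 2W female, from 124 counts in all), so the tissues overlapped. The long transcript therefore made up 42.3% in retina and 88.2% in MON.

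Similar shifts appeared in other genes. Bcas1-208, of 7 exons, held 91.5% of the Bcas1 counts in MON and 93.7% in UON, with no library under 80.8%. In retina Bcas1-203, of 12 exons, held 82.5% of only 365 counts in all 12 libraries. Sox6-210 held 82.6% in retina with a narrow range from 77.4% to 91.2%, against 52.5% in MON and 43.3% in UON, where single libraries ran from near 0 to above 80%. For Pdgfra the 2 full transcripts, Pdgfra-201 and Pdgfra-202, have different starts. Pdgfra-202 took 71.5% of the counts in retina and 19.0% in MON, but it ran from 0% to 95.4% among MON libraries and the 2 naive MON pools were at 0.121% and 61.3%. Enpp6-201 took 85.3 to 89.3% in each tissue, Cspg4-201 72.0 to 89.4%, and Gpr17 had 1 counted transcript. Shares of transcripts that overlap over most of their length were assigned by the assembler, and no test was made on them.

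**Figure D2:**
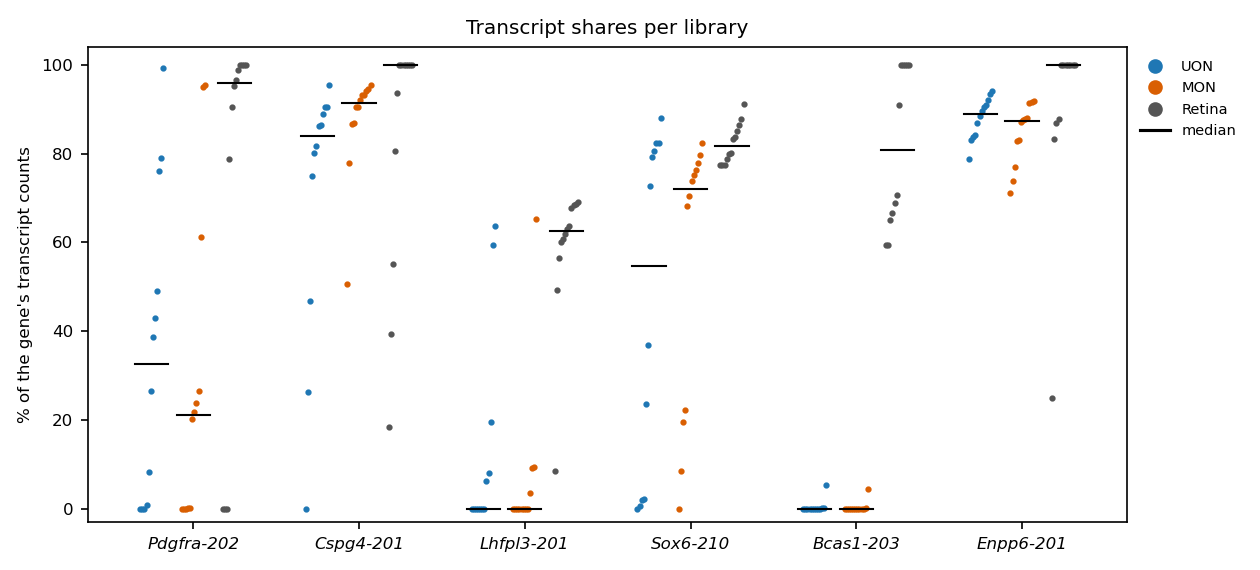
Share of each gene's transcript counts taken by 6 transcripts, in percent, with 1 point per library and a bar at the median of the libraries of a tissue; for each gene with more than 1 transcript it is the one with the largest share in retina. Lhfpl3-201 sits at a median of 62.5% in retina and at 0% in both nerve regions, with 3 nerve libraries near the retinal values.

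The injury comparisons ask whether precursors and newly formed cells respond to crush or to raised pressure. In none of the 32 comparisons was any of the 7 genes called by edgeR, among 224 tests of a gene in a comparison. At an unadjusted p under 0.05 there were 23 of these tests, and DESeq2 called 2 of the 211 it tested, with 31 at an unadjusted p under 0.05. Those 2 were Bcas1 in MON at 2W after crush and the difference in response of Enpp6 between the nerve regions at 2W after crush. The share of all genes that DESeq2 called is not given here or further on. With DESeq2 and the same limits, the paper reported more changed genes in MON after crush than edgeR called here.

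**Figure D3:**
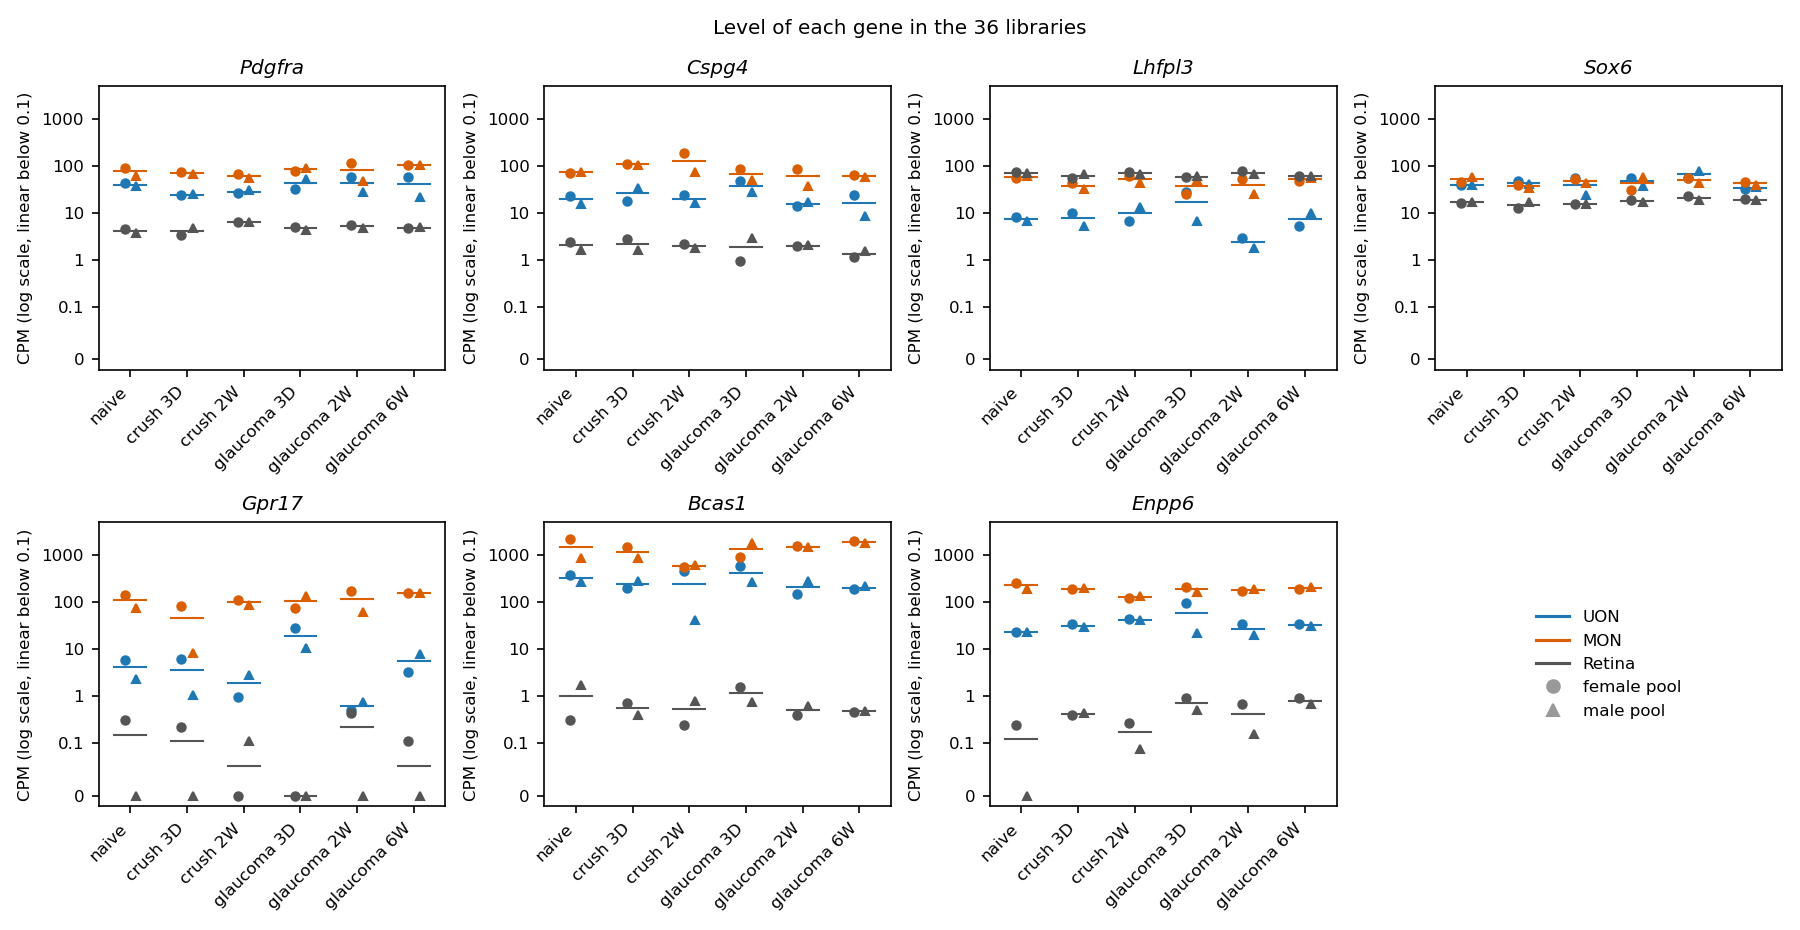
CPM of each gene in all 36 libraries (log axis, linear below 0.1), by condition and tissue, with a bar at the mean of the female pool (circle) and the male pool (triangle). The means of Pdgfra, Cspg4, Gpr17, Bcas1 and Enpp6 keep the order MON, UON, retina in all 6 conditions. Gpr17 falls to 8.61 CPM in 1 MON pool at 3D after crush.

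In MON at 3D after crush, edgeR called 4.26% of the genes tested (3.61% higher, 0.655% lower) and 0 of the 7. At 2W it called 2.72% (2.13% higher, 0.595% lower) and again 0 of 7. The median log2 fold change of the 7 genes was -0.21 at 3D and -0.15 at 2W, where that of all genes was 0.00 and 0.05.

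Gpr17 in MON was at 84.7 and 8.61 CPM at 3D after crush and at 115 and 87.1 CPM at 2W, against 145 and 75.0 CPM in naive pools. One pool of the crush 3D group, the male, lay far below the rest, and the other lay within the naive range. The log2 fold change at 3D was -1.61 ± 0.66, with a 95% interval from -3.15 to -0.08 (adjusted p = 0.218 by edgeR). Without the female crush 3D pool it was -3.19 and called (adjusted p = 6.005e-06), and without the male it was -0.57, so the call turned on which pool was kept. From 3D to 2W it was 1.66 ± 0.67 higher (adjusted p = 0.37 by edgeR; 0.075% of all genes were called), and it was called without the female crush 3D pool (3.17) and without the female crush 2W pool (2.58) but was 0.52 without the male crush 3D pool. In that male pool the other 6 genes lay between 31.6 CPM (Lhfpl3) and 868 CPM (Bcas1), with Enpp6 at 203 CPM and Cspg4 at 105 CPM, and none of these was as far below its naive pools as Gpr17.

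Bcas1 in MON was at 1535 and 868 CPM at 3D and at 573 and 632 CPM at 2W after crush, against 2191 and 878 CPM in naive pools. Both 2W pools lay below both naive pools. The log2 fold change at 2W was -1.14 ± 0.43, with a 95% interval from -2.14 to -0.15 (adjusted p = 0.242 by edgeR, 0.0138 by DESeq2), and with 1 pool left out it ran from -1.78, called, without the male crush 2W pool to -0.55 without the female one. Enpp6 was at 121 and 135 CPM at 2W, below the naive 262 and 196 CPM and below the 3D pools at 189 and 203 CPM. Its log2 fold change was -0.79 ± 0.28, with a 95% interval from -1.45 to -0.14 (adjusted p = 0.215 by edgeR).

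Cspg4 was the one precursor gene with a positive fold change at both times in MON. Its pools were at 111 and 105 CPM at 3D and at 184 and 73.4 CPM at 2W, against 71.7 and 75.4 CPM in naive mice. The 3D pools lay above both naive pools, while at 2W the male pool did not. The log2 fold changes were 0.62 ± 0.38 and 0.74 ± 0.39 (adjusted p = 0.407 and 0.423 by edgeR), and with 1 pool left out the latter ran from 0.054 without the female crush 2W pool to 1.36, called, without the male one. Pericyte and smooth muscle genes summed to 311 and 266 CPM at 3D and 413 and 483 CPM at 2W, against 279 and 310 CPM in naive MON, and of 12 genes 1 was called at 3D (Acta2, 1.67 higher) and 0 at 2W. Their part in the Cspg4 values was not tested.

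Pdgfra in MON was at 73.3 and 68.6 CPM at 3D and 66.6 and 55.6 CPM at 2W, within or beside the naive 92.3 and 61.1 CPM. The 95% interval of its log2 fold change ran from -0.60 to 0.59 at 3D and from -0.87 to 0.32 at 2W, so a change beyond 1 in either direction lies outside both. Lhfpl3 was at 44.2 and 31.6 CPM at 3D, below both naive pools (55.6 and 61.4 CPM), and at 61.6 and 43.5 CPM at 2W. Sox6 was at 39.4 and 34.3 CPM at 3D, also below both naive pools (46.5 and 57.6 CPM), and at 52.7 and 44.0 CPM at 2W. Neither passed, with log2 fold changes of -0.57 and -0.42 at 3D (adjusted p = 0.317 and 0.454 by edgeR). Fibroblast genes, which share Pdgfra, summed to 2812 and 3472 CPM at 3D and 4132 and 3321 CPM at 2W, above the naive 2614 and 2574 CPM at both times, and their part in the Pdgfra values was not tested. At 3D, 2 of the 7 genes lay below both naive pools and 1 above, where among genes of at least 1 CPM on average 31.0% lay below and 27.0% above. At 2W 2 lay below, Bcas1 and Enpp6, against 24.5% of all.

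**Figure D4:**
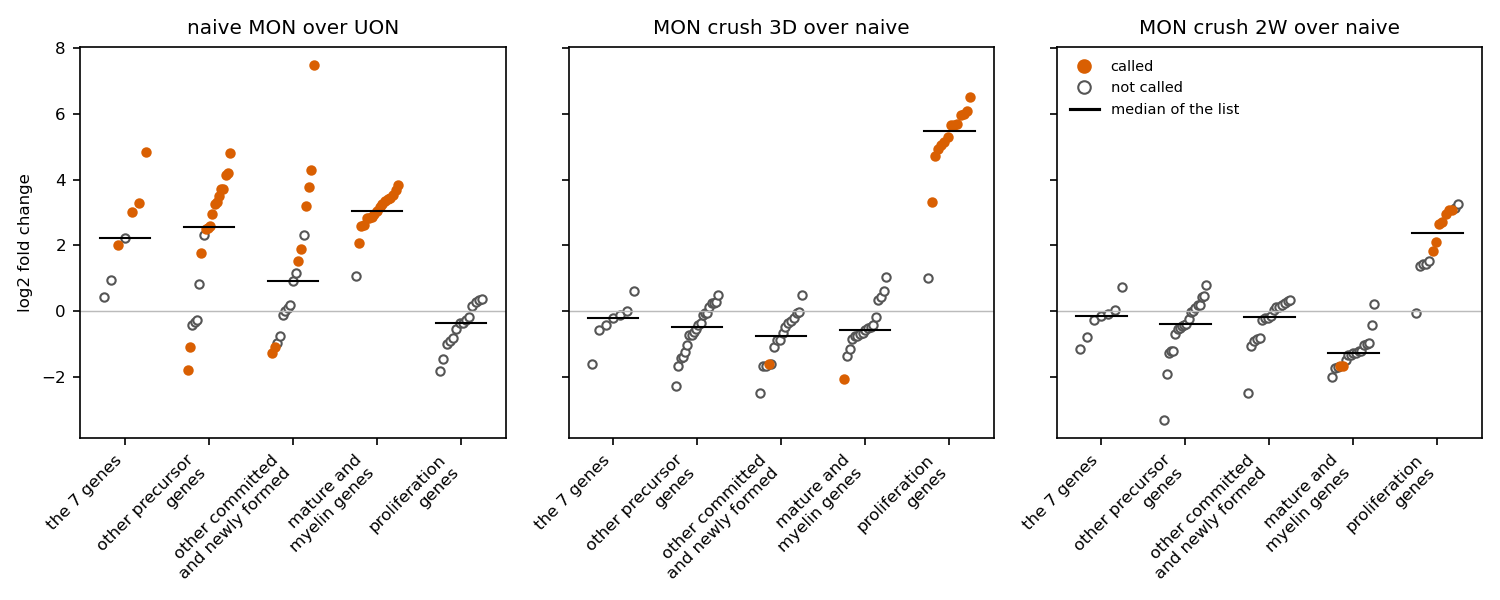
Log2 fold change of single genes in 5 lists for 3 comparisons, with called genes filled, others open and a bar at the list's median. The 7 genes have medians of 2.22 in naive MON over UON, -0.21 at 3D and -0.15 at 2W after crush, whereas the proliferation genes have 5.49 and 2.39 after crush.

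Other genes of the same cells were set beside these values. Of 20 other precursor genes 0 were called at either time in MON by edgeR (6 and 5 at an unadjusted p under 0.05), against 2 and 3 by DESeq2, with medians of -0.49 and -0.41. Single pools moved these counts: without the female crush 3D pool 4 were called at 3D, and at 2W 4 without the male and 2 without the female crush 2W pool. Their sum was between 1253 and 1501 CPM after crush, below the naive 2310 and 2030 CPM. Olig2 and Sox10 had log2 fold changes of -1.92 and -1.29 at 2W (adjusted p = 0.0573 and 0.0711). Of the other committed and newly formed cell genes 1 was called, at 3D: Fyn, a kinase that acts early in myelination and is used by many cells, lower by -1.60 (adjusted p = 0.0379). That count was 0 without the male crush 3D pool or without either naive pool, and 4 by DESeq2. Of the 17 mature and myelin genes, Mog and Myrf were called lower at 2W by -1.68 and -1.67. The other 15 of those genes were not called at 2W, yet 14 of the 17 had an unadjusted p under 0.05 and the median was -1.28. DESeq2 called 14 of the 17 at 2W, with no share of all genes to set beside it. The paper reported more changed genes there by DESeq2 than edgeR called here. The DESeq2 count is therefore not set against the edgeR shares or read as a result about these genes. By edgeR 11 were called at 2W without the male crush 2W pool, 4 without the female one and 0 without either naive pool.

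Genes of dividing cells were higher in the same samples. At 3D after crush 13 of 14 proliferation genes were called higher in MON, led by Ccnb2 at 6.53 (adjusted p = 0.016 by edgeR), and at 2W 7 of 14, led by Plk1 at 3.09 (adjusted p = 0.0215). Without the female naive pool 3 were called at 3D, and at 2W 0 were called without either naive pool and 12 without the male crush pool. Their sum was 848 and 996 CPM at 3D and 222 and 128 CPM at 2W, against 95.4 and 93.3 CPM in naive MON. Of 10 microglia and macrophage genes, 3 were called higher at 3D and 4 at 2W, led by Cd68 at 3.99 and 3.59. In UON at 3D after crush the proliferation sum was 1013 and 621 CPM, against 97.9 and 77.9 CPM in naive UON. Which cells divided was not measured.

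In UON after crush the values scattered more. At 3D edgeR called 0% of all genes and 0 of the 7, and at 2W 0.0281% and 0 of the 7, with 0.00468% and 0 of the 7 between the times. Enpp6 lay above both naive UON pools (23.2 and 23.9 CPM) at both times, at 34.9 and 29.6 CPM at 3D and at 43.4 and 42.1 CPM at 2W, with a log2 fold change at 2W of 0.84 (adjusted p = 0.52 by edgeR). Pdgfra lay below both naive pools at both times, at 23.9 and 24.7 CPM at 3D and 26.0 and 30.1 CPM at 2W, against 43.4 and 37.0 CPM. Of all genes 17.2% lay above and 21.2% below both naive pools at 3D, and 23.3% and 26.1% at 2W. Fibroblast genes, the other source named above, summed to 4366 and 8679 CPM at 3D against 4476 and 4972 CPM in naive UON and to 5824 and 7585 CPM at 2W, so that all but 1 of these libraries lay above naive. Bcas1 at 2W was at 456 CPM in the female pool and 41.4 CPM in the male pool, the library that was also lowest in myelin genes. Its log2 fold change of -0.84 over naive turned to 0.46 without that male pool.

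Enpp6 therefore moved in opposite directions in the nerve regions at 2W after crush, down in MON and up in UON, in every pool. The difference in response (MON minus UON) was -1.64 ± 0.34 on the log2 scale, with a 95% interval from -2.40 to -0.88. It did not pass in edgeR (adjusted p = 0.147; 0% of 25011 genes were called) and passed in DESeq2 (-1.74, adjusted p = 0.0003155) and without the female UON crush 2W pool (-1.60, adjusted p = 0.032 by edgeR). Among 30098 genes 6.56% moved in opposite directions in the same way with no overlap. The difference in response at 3D after crush was -0.63 ± 0.34 for Enpp6, and no gene of the 7 passed there (0.012% of all genes were called). Sox6 was the gene with opposite moves at that time, as 4.79% of genes were, with a difference of -0.66. After beads the differences in response gave 0% called at each time and 0 of the 7. For Enpp6 they were -1.46 ± 0.62 at 3D, -0.40 ± 0.62 at 2W and -0.66 ± 0.61 at 6W. Over all 5 injuries, set against the same naive pools, its log2 fold change ran from 0.12 to 1.13 in UON. In MON it ran from -0.79 to -0.13. Because the naive pools are shared, these folds are not separate observations, and single pools after beads did not follow. The male UON pools of glaucoma 3D and 2W, at 22.4 and 20.1 CPM, lay below both naive UON pools (23.2 and 23.9 CPM). In MON the female pool of glaucoma 3D and both pools of 6W, at 217, 197 and 217 CPM, lay above the male naive pool (196 CPM).

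**Figure D5:**
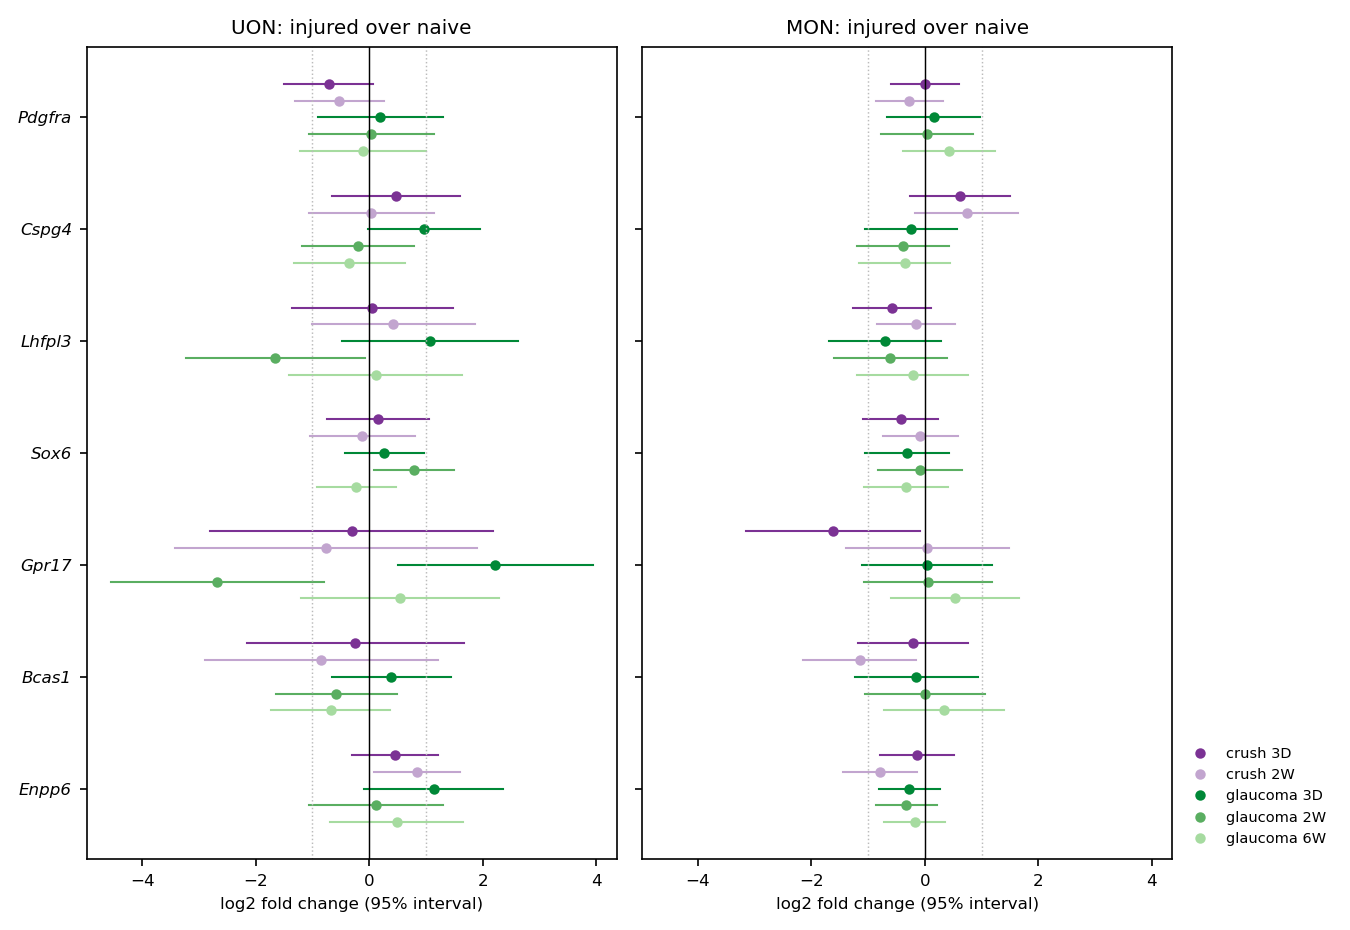
Log2 fold change of each gene over naive with its 95% interval, for 5 injuries in UON (left) and MON (right), with dotted lines at -1 and 1. Enpp6 at crush 2W lies at 0.84 in UON and at -0.79 in MON, and Gpr17 has the widest intervals in both regions.

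After microbead injection 0% of all genes tested were called in UON or MON at 3D, 2W or 6W by edgeR, and 0 of the 7 at each time, nor was any between 3D and 6W (0% in both regions). DESeq2 called none of the 7 there either. The paper, with DESeq2 and the same limits, did report changed genes in both nerve regions after bead injection. It names Olig2, one of the other precursor genes, as changed in both at 2W. The 0% of edgeR is therefore not an absence of any response. In MON the log2 fold changes of the 7 genes over naive lay between -0.70 (Lhfpl3 at 3D) and 0.54 (Gpr17 at 6W). Bcas1 was at 908 and 1830 CPM at 3D, 1545 and 1474 CPM at 2W and 2043 and 1843 CPM at 6W, all between the naive 2191 and 878 CPM. Gpr17 was at 77.7 and 136 CPM at 3D, 175 and 61.1 CPM at 2W and 156 and 157 CPM at 6W. The pools of 3D lay inside the naive range, those of 2W on either side of it, and those of 6W just above it. Pdgfra at 6W, at 105 and 103 CPM, likewise lay above both naive pools, where 24.9% of genes did.

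Lhfpl3 in MON lay below both naive pools at 3D (25.2 and 50.3 CPM) and 2W (51.7 and 25.1 CPM), as it did at 3D after crush. After beads 16.2% of genes lay below both naive pools at 3D and 19.9% at 2W. Enpp6 held between 169 and 217 CPM in MON across the 3 times, with the male naive pool inside this range and the female above it, and at 2W both pools (175 and 192 CPM) lay below both naive pools. Cspg4 held between 37.5 and 85.8 CPM, a range that takes in both naive pools, and Sox6 between 31.1 and 57.0 CPM. At 6W both lay below both naive pools, Cspg4 at 63.0 and 58.2 CPM and Sox6 at 45.3 and 39.8 CPM, as 16.9% of genes did.

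In UON the female pool of glaucoma 3D was the highest UON library for 5 of the 7 genes. Gpr17 was at 28.2 CPM there and 10.8 CPM in the male pool, Lhfpl3 at 27.4 and 6.65 CPM, Enpp6 at 98.8 and 22.4 CPM, Bcas1 at 588 and 275 CPM and Cspg4 at 48.2 and 27.7 CPM. Precursor and mature lists were highest in the same library, at 1043 CPM for the 20 other precursor genes against 573 CPM in the male pool, and at 27450 against 11460 CPM for the myelin genes. How much nerve of the myelinated kind that sample held was not tested. Pdgfra (32.7 and 53.6 CPM) went the other way between the same pools. At 2W in UON, Gpr17 at 0.506 and 0.774 CPM and Lhfpl3 at 2.99 and 1.81 CPM lay below both naive pools, as 21.4% of genes did, and Sox6 at 55.9 and 78.4 CPM lay above them, as 16.4% did. The log2 fold change of Sox6 was 0.78 (adjusted p = 1 by edgeR). The other 4 genes overlapped with naive, and the myelin genes summed to 8610 and 9882 CPM against 13390 and 12990 CPM in naive UON. The log2 fold changes of Gpr17 in UON were 2.22 at 3D and -2.67 at 2W (adjusted p = 1 for each by edgeR). The log2 fold change of Lhfpl3 at 3D was 1.07 and turned to -0.12 without the female pool.

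At matched times crush and glaucoma were also compared directly. In MON at 3D edgeR called 0.0162% of all genes and 0 of the 7, and at 2W 0.0485% and 0 of the 7. Cspg4 had the lowest adjusted p in both, at 0.492 and 0.479, with log2 fold changes of crush over glaucoma of 0.78 ± 0.36 and 1.07 ± 0.36. Bcas1 at 2W was lower after crush by -1.30 ± 0.44 (95% interval from -2.28 to -0.31; adjusted p = 0.485). In UON at 3D 0% of genes were called and at 2W 0.0418%, with 0 of the 7 in each. Lhfpl3 in UON at 2W, at 6.78 and 13.1 CPM after crush and 2.99 and 1.81 CPM after beads, was higher after crush by 2.14 (adjusted p = 0.413).

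In retina no gene of the 7 was called after crush (0.0221% of all genes at 3D, 0.313% at 2W) or beads (0.00429% at 3D, 0% at 2W, 0.00858% at 6W). Lhfpl3, the retinal member with the most counts, had log2 fold changes over naive between -0.30 and -0.01 over the 5 injuries, with SEs of 0.13 to 0.14. Sox6 ranged from -0.16 to 0.33 and Pdgfra from 0.00 to 0.58. Comparisons between times and between the injuries in retina gave 0 of the 7 as well, where 0.0485% (crush 2W over 3D), 0.0129% (glaucoma 6W over 3D), 0.0081% (crush over glaucoma at 3D) and 0.113% (at 2W) of all genes were called. The committed genes had too few counts in retina for a fold to be given.

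Over all 36 libraries the levels of the genes followed the tissues. The log2 CPM of Bcas1 was most like those of Mbp, Mobp and Mal, genes of compact myelin (Pearson's r of 0.994, 0.994 and 0.99). Enpp6 was most like Nkx6-2, Gjc3 and Dock10 (0.989, 0.986 and 0.983), Gpr17 like Pacs2, Pip4k2a and Sema4d (0.951 each), and Lhfpl3 like Sorcs3, Gria4 and Sez6l (0.954, 0.951 and 0.934). Pdgfra was most like Csf1, Arhgef10 and Dock10 (0.973, 0.973 and 0.97), Cspg4 like Gltp, Rhog and Prag1 (0.968, 0.966 and 0.965), and Sox6 like Nrbp2, Mir100hg and Nfkb1 (0.934, 0.932 and 0.927). These are descriptions over libraries that share tissue, mice and depth. Among the 7, Lhfpl3 had negative values with the other 6 (from -0.522 with Sox6 to -0.0755 with Gpr17), and all other pairs had positive values of at least 0.749.

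Within the 12 MON libraries the genes no longer moved as a block. Bcas1 and Enpp6 had an r of 0.646 with each other and of 0.776 and 0.892 with the summed mature and myelin genes, while Gpr17 had 0.0539 and Cspg4 -0.605. Lhfpl3 and Sox6 had 0.722, and Pdgfra and Cspg4, both textbook precursor genes, -0.00583. The nearest genes there were Coq8a, Gng4 and Iqck for Gpr17 (0.955, 0.943 and 0.938), Mcf2l, Gramd2 and Trak2 for Bcas1 (0.947, 0.934 and 0.922) and Inpp5f, Elovl7 and Tmem88b for Enpp6 (0.945, 0.944 and 0.941). For the precursor genes they were Brinp3, Vxn and Cntn1 with Pdgfra (0.859, 0.85 and 0.831), Mpg, Tmem200a and Psma8 with Cspg4 (0.875, 0.868 and 0.866), Ak8, Samd14 and Arsa with Lhfpl3 (0.885, 0.817 and 0.808) and Hyi, Plac9a and Plac9b with Sox6 (0.901, 0.877 and 0.872). All of these nearest genes are the highest of 13884 compared over only 12 libraries, and no test was made on them. Pdgfra had an r of -0.415 with the summed fibroblast genes in MON and 0.212 in UON, and Cspg4 of 0.0667 and -0.265 with the pericyte and smooth muscle genes.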

How the data were processed

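RNA from pools of 2 mice was sequenced as pairs of reads after an ultra-low-input preparation. Per the submitters' processing notes and the study's methods, the authors aligned reads to GRCm38 with HISAT2 2.2.1 and assembled them with StringTie 1.3.0. The deposited estimated counts per gene and transcript come from StringTie's count script, rounded up by the authors and not normalized. Genes with 1 transcript gave 74.9 to 75.0 bases of coverage per count, so a pair of reads adds about 4 counts. For levels between genes the deposited FPKM were used, which the authors took from StringTie; values just below 0 were set to 0. The setting for strand is not given in the sources used here, so antisense overlap cannot be told apart.

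Counts were tested with edgeR 4.0.16 (R 4.3.3) after TMM scaling and a filter by filterByExpr (minimum count 10, minimum total 15). The quasi-likelihood test was fitted with group and sex as terms, Benjamini-Hochberg adjusted over all genes tested. Naive libraries were fitted together, as were the libraries of each tissue and model, and each pair of groups set against each other. Calls needed adjusted p-values below 0.05 with log2 fold changes above 1 or below -1. CPM use TMM factors over 36 libraries. In the naive fit the sex term is also the block for pools of the same mice. In the fits of both nerve regions it is not, and there the pool was a block only in an alternative fit. Alternatives were DESeq2 1.42.0, its size factors in edgeR, no filter, no sex term, counts divided by 4, 1 fit of all 36 libraries, no limit on the fold change, each library left out, the pool of mice as a block for the interactions, and limma 3.58.1 on log2(FPKM + 1), with 0.1 as another pseudocount. Intervals cover variation between pools only, with 2 pools per group. Its size was estimated over all libraries of a fit and in part across genes, so it is not the spread of 1 group. The test script was tested on simulated data. Transcript names are from GENCODE vM21, matched by identifier to the authors' tables.

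The members and lists were chosen with earlier results of these data known. Named genes are the 7 members, in each list described the called genes of largest change, 1 each way, and for each member the 3 genes of highest correlation among those of at least 1 CPM on average with an official symbol. Other list genes named (Sox10, Olig1, Olig2, Sox5, Myrf at 2W, Pdgfrl and Acta2 in the regional comparison) were chosen after their values were seen. So were Rgs5, Kcnj8, Pdgfrb, Acta2 and Myh11 in retina. One list gene that this rule names is not reported here.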

Additional observations from a re-analysis of the deposited data

Results flagged for a closer look

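Enpp6 moved in opposite directions in the nerve regions at 2W after crush, with both MON pools below and both UON pools above their naive pools, a difference in response of -1.64 on the log2 scale (adjusted p = 0.147 by edgeR). Sox6 did so at 3D after crush, with MON pools at 39.4 and 34.3 CPM against 46.5 and 57.6 CPM in naive MON and UON pools at 48.0 and 40.3 CPM against 39.0 and 39.7 CPM in naive UON, a difference of -0.66 with a 95% interval from -1.76 to 0.44 (adjusted p = 0.859 by edgeR). Of all genes 4.79% moved in opposite directions at 3D and 6.56% at 2W. Set against the same naive pools, the log2 fold change of Enpp6 had the same signs after every injury. It ran from 0.12 to 1.13 in UON and from -0.79 to -0.13 in MON. The male UON pools of glaucoma 3D and 2W nevertheless lay below both naive UON pools.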

How the results depend on the processing

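The regional counts of genes called kept within 1.5 times of their value under every alternative run on counts, and 0 of 210 regional log2 fold changes under other settings changed sign. Among injury counts, which were 0, 1 gene was called without the filter on low counts in MON crush 3D over naive (Gpr17), in MON crush 2W over 3D (Gpr17) and in the difference in response to crush 2W (Enpp6). DESeq2 also called 1 in MON crush 2W over naive (Bcas1) and 1 in that difference (Enpp6), and the fit of all 36 libraries called 1 in UON crush 2W over glaucoma 2W (Lhfpl3). With single libraries left out the counts ran from 0 to 1 in MON crush 3D over naive, MON crush 2W over 3D, MON crush 3D over glaucoma 3D and the differences in response to crush 2W and glaucoma 3D, and from 0 to 2 in MON crush 2W over naive. A lone pool was then assumed to vary like the other groups. Leaving out the female UON glaucoma 3D pool or the male UON crush 2W pool gave 0 calls of the 7. Of 2398 injury values under other settings 246 had the other sign, among them 15 of nerve comparisons above 0.5 in size, each with 1 library left out; the cause was not tested. On log2(FPKM + 1) limma no longer called Cspg4 in naive MON over UON (adjusted p = 0.0745), nor Gpr17 (0.65, adjusted p = 0.0585) and Sox6 (0.99, under the limit) in naive UON over retina. Limma did call Bcas1 in naive MON over UON (2.07, adjusted p = 0.0139). EdgeR also called Bcas1 there without the filter on low counts and with counts divided by 4. Without a filter on FPKM none of the 4 genes was called in MON over UON (adjusted p = 0.109 for Gpr17 and Lhfpl3, 0.101 for Enpp6 and 0.642 for Cspg4). No replicate number pairs the pools in the labels, and the mouse pool as a block changed no call. Depth limits the retinal values of Gpr17, Bcas1 and Enpp6, which rest on at most 78 counts. It also limits those of Cspg4, with 24 to 157 counts.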
